A study of Solenopsis invicta with 32 samples.

Results

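The genes described here were abundant in the brain of fire ant gynes and stood at a median of 1 or less in their ovaries, in CPM (counts per 1000000 gene counts of a library). They are 51 of the 16314 gene models of Solenopsis invicta in the files, and they were chosen from the measured levels. A gene was taken when its median was at least 100 CPM in the brains of both treatments and at most 1 CPM in the ovaries of both treatments. The brain medians of the treatments also had to differ by less than about 1.5-fold either way, and the coefficient of variation (CV, the SD over the mean) in spring-reared brains had to be under 0.8. Because the levels in both organs and the brain difference between treatments chose the genes, those values are given as descriptions.

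Gynes are young queens that have not yet founded a colony. All gynes were SB/SB, homozygous at the supergene that goes with social form, and came from monogyne colonies, which keep a single egg-laying queen. The study set gynes that had overwintered against gynes reared in spring and asked which genes go with the plastic weight of queens. There were 8 overwintered brains, 8 spring-reared brains, 8 overwintered ovaries and 8 spring-reared ovaries. Both organs were taken from each of 16 gynes, per the labels. Each gyne has a code of its own there, read here as 1 gyne from each colony. The age and weight of the gynes are not given in the labels. The codes of each treatment share a prefix of their own, so whatever that prefix marks cannot be told apart from treatment.

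The insect brain is made of neurons and glia, and its typical products are ion channels, synaptic proteins, neurotransmitter enzymes, neuropeptides and, in the visual system, opsins. Ovaries of gynes hold germ cells, nurse cells and follicle cells, which mostly lack these products. The deposited identifiers carry no gene names, and 0 of 16314 were found in the gene table of the reference. Which of these products the 51 genes encode is therefore not stated here, markers of cell types could not be read, and the organ labels could not be checked against marker genes. The genes are called by their rank in brain level, rank 1 being the highest median CPM over the 16 brains. The 4 picked by rule also have their identifier given. CPM is not corrected for gene length, so the ranks order read numbers and not numbers of transcripts.

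Gene counts ranged from 9612985 to 23656547 per library. In earlier results of these data 5 libraries stood apart from their groups: overwintered ovaries 1 and 5, spring-reared ovary 6, and brains 4 and 7 of the spring-reared gynes. Choosing the genes without these 5 libraries kept 44 of the 51, and without spring-reared brains 4 and 7 the brain fit called 2 of the 51 genes lower, ranks 12 and 16. Of the 1988 genes with brain medians of at least 100 CPM, 60 had ovary medians of at most 1 CPM. The ratio of brain medians left out 9 of the 60, 3 of them higher and 6 lower in overwintered brains, and the limit on CV left out no further gene. The lowest brain median among the 51 genes was 104.4 CPM, and the nearest gene outside stood at 95.4 CPM. The highest ovary median among them was 0.973 CPM, and the nearest outside was 1.07 CPM. Their ratios of brain medians ran from 0.669 to 1.47, with the nearest genes outside at 0.660 and 1.64. The other 1928 abundant brain genes, with an ovary median above 1 CPM in at least 1 treatment, serve below as a comparison. With the organs exchanged and no limits on ratio and CV, 38 genes met the limits as ovary genes.

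In brain the 51 genes together took 2.60 ± 0.243% of all gene counts in overwintered gynes and 2.84 ± 0.398% in spring-reared gynes (SD, n = 8 each), ranges that overlap. In whole organs, fewer cells of a type and less RNA per cell cannot be told apart. A single gene held much of this: rank 1 made up 27.8% of their summed level over the 16 brains, and the first 10 ranks made up 62.1%. Rank 1 had the fourth highest median CPM of all genes in brain, and 4 of the 51 genes were among the 100 highest. By median over the 16 brains, 4 genes exceeded 1000 CPM, 9 lay from 500 to 1000 CPM, 19 from 200 to 500 CPM and 19 from 100 to 200 CPM.

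**Figure D1:**
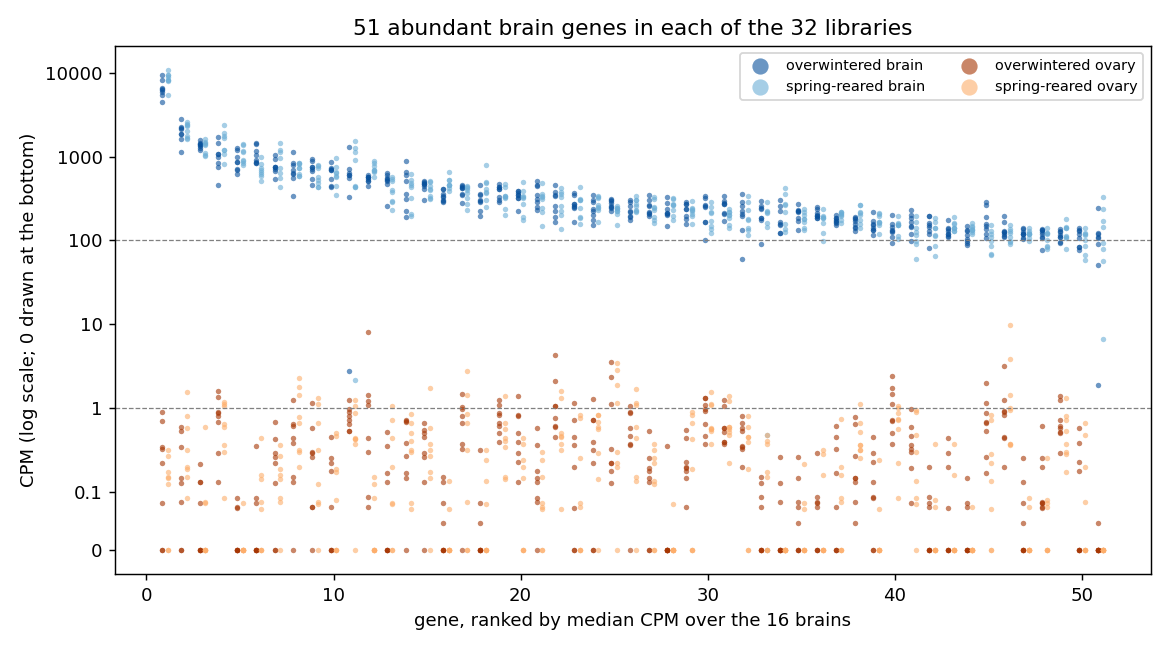
CPM of each of the 51 genes (x axis, ranked by median over the 16 brains) in each library, on a log axis with 0 drawn at the bottom; each point is 1 library, and dashed lines mark 100 and 1 CPM. Brain points form a band that falls off after rank 1, ovary points lie under 10 CPM, and ranks 11, 33 and 51 have brain points far below their band.

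Rank 1, SINVBB1_04483, had a lowest value of 4462 CPM, a median of 6262 CPM and a highest value of 9357 CPM in overwintered brains. Its lowest, median and highest values were 5416, 8549 and 10793 CPM in spring-reared brains. The groups overlapped, with 7 of 8 overwintered values under the median of the spring-reared ones. The fitted difference was -0.51 on the log2 scale, with an SE of 0.16 (edgeR adjusted p = 0.0645). Overwintered brain 1 was the highest of its group and spring-reared brain 1 the lowest of its own. Without the first the adjusted p of edgeR was 0.0103 and without the second 0.0325. The gene passed in 3 of the 23 alternative fits, with an edgeR adjusted p up to 0.170 without spring-reared brains 4 and 7.

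SINVBB1_11757, rank 4, had the most negative log2 fold change among the 51 genes. It ran from 460.8 to 1697 CPM with a median of 1024 CPM in overwintered brains, against 818.7 to 2378 CPM with a median of 1433 CPM in spring-reared brains. The groups overlapped over most of their ranges (log2 fold change -0.66, SE 0.25, edgeR adjusted p = 0.144). In ovary it left counts in all 16 libraries, with medians of 0.835 CPM (overwintered) and 0.617 CPM (spring-reared).

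SINVBB1_12297, rank 6, was the most abundant gene with a positive log2 fold change. It stood at 844.1 to 1461 CPM with a median of 972.1 CPM in overwintered brains. In spring-reared brains it stood at 503.4 to 975.1 CPM with a median of 674.1 CPM. All 8 overwintered brains lay above the spring-reared median, and the groups overlapped through 1 spring-reared library, brain 8 (log2 fold change 0.48, SE 0.15, edgeR adjusted p = 0.0732). Without that library the edgeR adjusted p was 0.0421. The gene passed in 4 of the 23 alternative fits, with an edgeR adjusted p up to 0.143 without spring-reared brains 4 and 7.

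SINVBB1_09010, rank 45, had the most positive log2 fold change. It ran from 105.2 to 288.4 CPM with a median of 153.1 CPM in overwintered brains, against 65.9 to 153.7 CPM with a median of 104.4 CPM in spring-reared brains. All 8 overwintered brains lay above the spring-reared median (log2 fold change 0.62, SE 0.20, edgeR adjusted p = 0.0832). The adjusted p in edgeR was 0.0478 without overwintered brain 1 and 0.0460 without spring-reared brain 5. This gene passed in 4 of the 23 alternative fits, with an edgeR adjusted p up to 0.217 without spring-reared brains 4 and 7. Its ovary traces were 93 counts in overwintered ovaries, with a median of 0.664 CPM, and 31 counts in spring-reared ovaries, with a median of 0.178 CPM.

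**Figure D2:**
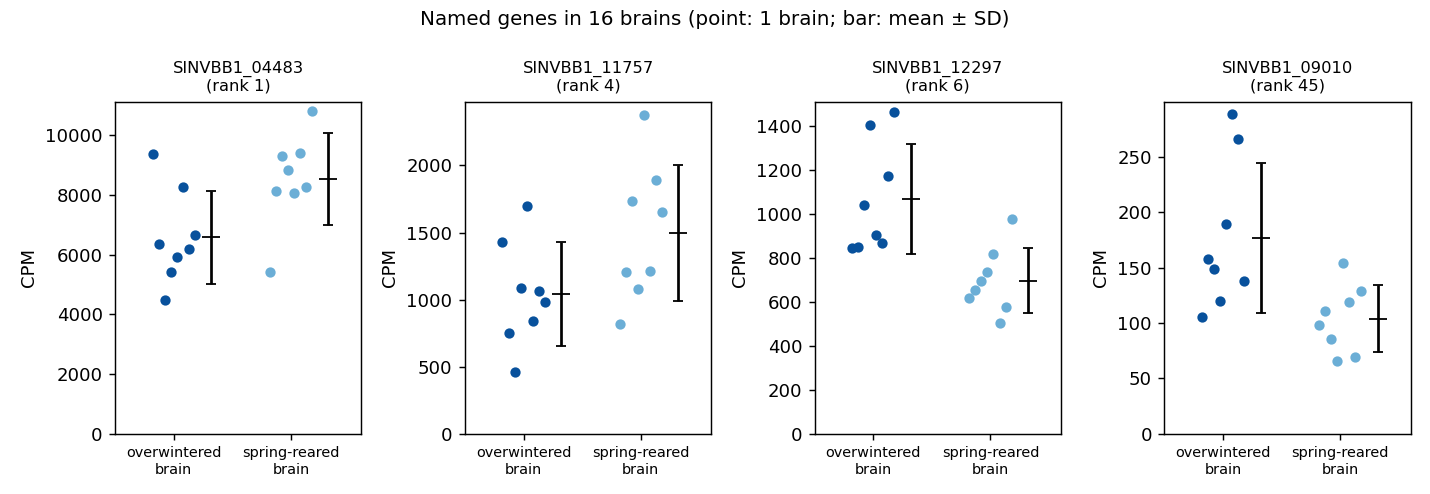
CPM of the 4 genes given by identifier in each of the 16 brains (y axis, linear from 0, differing between panels); each point is 1 brain, and the bar beside each group is the mean ± SD of 8. In each panel the ranges of the overwintered and spring-reared brains overlap.

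In the edgeR fit of all 9570 brain genes, 4 of the 51 genes fell in overwintered brains and 0 rose. Over all genes tested 5.4% were called, 3.79% lower and 1.61% higher. Since the ratio of medians was limited in choosing the genes, nothing is read from these counts. At an unadjusted p under 0.05 in edgeR, 13 of the 51 were lower and 2 higher. The share of all genes at that limit is not given here. DESeq2 called 7 lower and 2 higher, where it called 863 of all 9570 genes tested. Nothing is read from these counts either.

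The 4 falls were those of ranks 12, 16, 37 and 38. Rank 12 had 450.1 to 606.1 CPM with a median of 557.3 CPM in overwintered brains and 573.4 to 892.9 CPM with a median of 696.6 CPM in spring-reared brains (log2 fold change -0.56, SE 0.10, edgeR adjusted p = 0.00455). Rank 16 had 287.6 to 409.1 CPM with a median of 337.0 CPM in overwintered brains, against 387.6 to 652.8 CPM with a median of 456.6 CPM in spring-reared brains (log2 fold change -0.65, SE 0.12, edgeR adjusted p = 0.00483). For both genes the ranges overlapped only at their ends. Rank 37 had 151.7 to 201.1 CPM in overwintered brains and 160.8 to 219.8 CPM in spring-reared brains, and rank 38 had 130.8 to 188.3 CPM in overwintered brains and 141.6 to 266.4 CPM in spring-reared brains. Ranks 37 and 38 fell less far, by 0.33 and 0.47 on the log2 scale (edgeR adjusted p = 0.0259 and 0.0446). In each of the 4 genes, 8 of 8 overwintered values were under the median of spring-reared brains. Ranks 12 and 16 were called under all 23 alternatives, with adjusted p up to 0.0259 and 0.0255. The alternatives refit the same brains and are not independent of the main fit. Rank 37 lost its call in 6 of the 23 and rank 38 in 15. For rank 37 these included the fits without overwintered brain 7, spring-reared brain 3 or spring-reared brain 7. Rank 38 lost its call without any of 6 overwintered brains (2, 3, 5, 6, 7 and 8) or of 6 spring-reared brains (2, 3, 4, 5, 7 and 8).

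How many of the 51 genes lay lower in overwintered brains depended on the scaling. With the trimmed mean (TMM) factors of edgeR, 34 of 51 log2 fold changes were below 0 and their median was -0.10, against 0.02 for all genes tested. With total counts alone, 22 of 51 were below 0 and the median was 0.03, as all genes moved by a median of 0.14 on the log2 scale. The other abundant brain genes moved along: 66.0% were below 0 with TMM and 40.6% with total counts. Of all brain calls, 70.2% were falls with TMM and 31.8% with total counts. The fit with total counts called 413 of 9570 genes higher and 193 lower. With total counts ranks 12 and 16 remained the only falls among the 51 genes, and SINVBB1_12297 and SINVBB1_09010 rose (log2 fold changes 0.61 and 0.76, edgeR adjusted p = 0.0210 and 0.0437). No gene of the 51 had brain ranges fully apart. Over all brain genes tested, 0.575% lay apart with overwintered brains above and 0.376% with overwintered brains below. The limit on the ratio of medians makes ranges apart less likely for the 51 genes, so nothing is read from this.

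The spread between gynes was a property the choice of genes used only in spring-reared brains. The CV of the 51 genes in overwintered brains ran from 0.0867 to 0.664 with a median of 0.228. In spring-reared brains it ran from 0.0906 to 0.752 with a median of 0.231. The other abundant brain genes had a median CV of 0.153 over overwintered and of 0.157 over spring-reared brains. The CV was higher in overwintered brains for 21 of the 51 genes (41.2%) and for 48.7% of the other abundant genes. The difference between the gene groups was not tested. Genes that varied between overwintered gynes tended to be those that varied between spring-reared gynes, with Spearman's rho of 0.637 across the 51 genes, which share their libraries and are not independent.

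The steadiest gene in overwintered brains was rank 3. It held 1186 to 1576 CPM in overwintered brains (mean 1376 ± 119.3, CV 0.0867) and 1001 to 1606 CPM in spring-reared brains (mean 1311 ± 232.2, CV 0.177; SD, n = 8 each). Rank 14 was among the least steady without any brain near 0. It ran from 189.3 to 876.9 CPM in overwintered brains and from 196.6 to 625.5 CPM in spring-reared brains, with CVs of 0.511 (overwintered) and 0.375 (spring-reared).

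**Figure D3:**
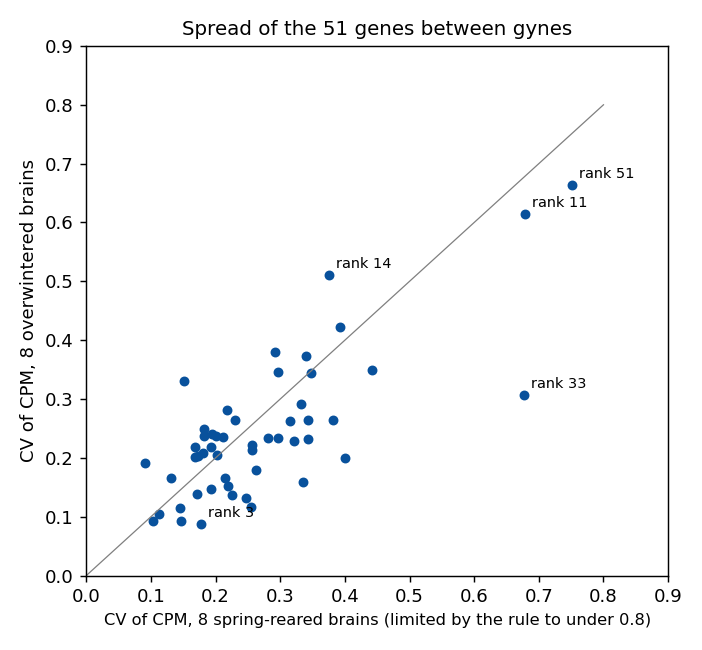
CV of CPM over 8 overwintered brains (y axis) against CV over 8 spring-reared brains (x axis) for the 51 genes, 1 point per gene; the line marks equal values. Most points lie between 0.1 and 0.4 on both axes, ranks 11 and 51 are high in both treatments, and rank 33 stands at 0.677 on the spring-reared axis and 0.306 on the overwintered axis.

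The 3 genes with the highest CV in spring-reared brains were each close to 0 in single brains and abundant in the rest. They were singled out after their values were seen, with a limit of 10% of the group median. This applied to 3 of the 51 genes (5.88%) and to 5 of the 1928 other abundant brain genes (0.259%).

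Rank 11 was abundant in all but 2 brains. It held 2.78 CPM in overwintered brain 6, from 33 counts, and 329.9 to 1293 CPM in the other 7 overwintered brains. In spring-reared brain 8 it held 2.14 CPM, from 32 counts, against 430.6 to 1538 CPM in the other 7 spring-reared brains. Rank 51 was low in the same 2 brains. It held 1.85 CPM in overwintered brain 6, against 50.2 to 245.8 CPM in the rest of that group. It held 6.61 CPM in spring-reared brain 8, against 56.2 to 328.5 CPM in the rest. Among the other 14 brains the ratio of rank 11 to rank 51 stayed between 4.68 and 7.98, with a median of 5.41. In the 2 low brains this ratio was 1.5 in overwintered brain 6 and 0.323 in spring-reared brain 8.

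Both brains were low in a further 2 abundant brain genes, which missed the choice because their ovary medians were above 1 CPM. The first held 35.1 CPM in overwintered brain 6 and 50.5 CPM in spring-reared brain 8, against 1406 to 6094 CPM in the other 14 brains. The second held 4.38 and 8.35 CPM in those brains, against 486.9 to 3275 CPM in the other 14. The low brains thus came from 1 gyne of each treatment, and no other of the 51 genes was below the limit in them. Without the low brain of each group rank 11 had a CV of 0.439 (overwintered) and 0.516 (spring-reared), and rank 51 a CV of 0.504 (overwintered) and 0.614 (spring-reared), still above the median of the 51 genes. In the ovaries of these gynes rank 11 stood at 0.525 CPM in overwintered ovary 6, the lowest of its group by a small margin, and at 0.868 CPM in spring-reared ovary 8. Overwintered brain 6 and spring-reared brain 8 were not alone in this. Of the other abundant brain genes, 2 were below the limit in spring-reared brain 4 and 1 in spring-reared brain 5.

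Rank 33 was low in other gynes. It held 0 counts in spring-reared brain 1 and 7 counts (0.473 CPM) in spring-reared brain 5, against 144.6 to 289.6 CPM in the other 6 spring-reared brains. All 8 overwintered brains held it, at 89.6 to 298.3 CPM. Its CV in spring-reared brains was 0.677 with these 2 brains and 0.249 without them. Spring-reared brain 1 had 19290194 gene counts, so 0 counts allow up to 0.156 CPM (3 counts, counting error only). Rank 33 was also the 1 gene of the 51 that the authors' deposited brain table of CPM does not list.

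**Figure D4:**
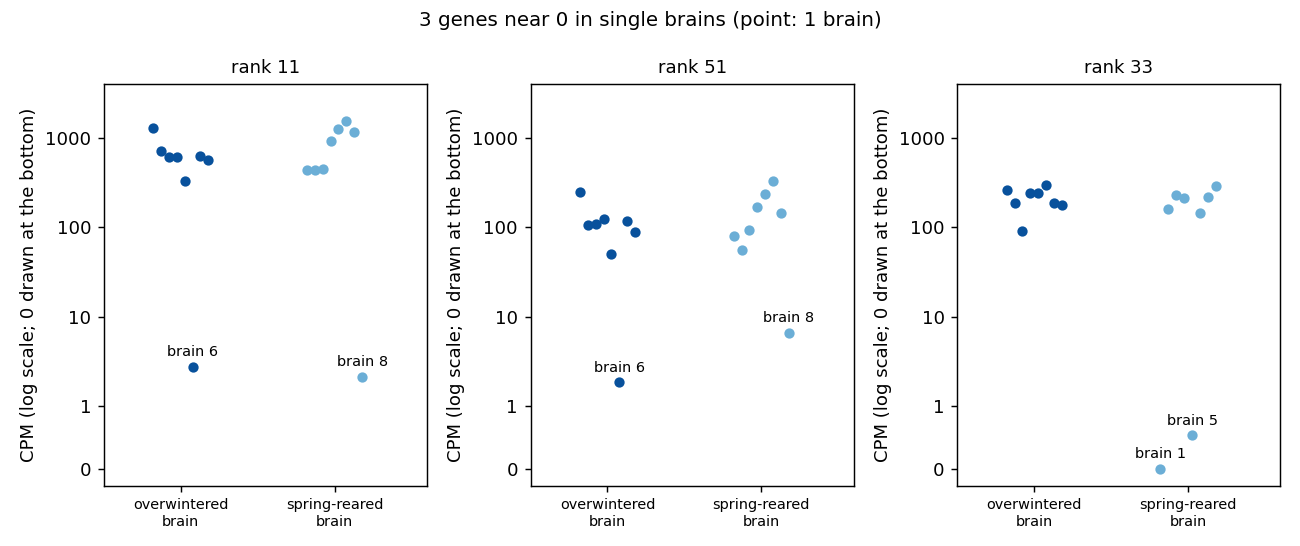
CPM of ranks 11, 51 and 33 in each of the 16 brains (y axis, log scale, 0 drawn at the bottom), 1 point per brain, with the low brains labelled. Ranks 11 and 51 are low in overwintered brain 6 and spring-reared brain 8, and rank 33 in spring-reared brains 1 and 5.

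Single brains also stood apart over many of the 51 genes at once, further in the spring-reared than in the overwintered group. Their summed level was 21970 to 29909 CPM in overwintered brains, with a median of 25840 CPM, and 20858 to 34161 CPM in spring-reared brains, with a median of 27810 CPM. Spring-reared brain 1 had the lowest sum and held the lowest value of its group in 17 of the 51 genes and the highest in none. The median log2 distance of its values from the group medians was -0.29 over the 51 genes and -0.03 over the other abundant brain genes. Spring-reared brains 5 and 8 were highest in 14 and 19 of the 51 genes, with median log2 distances of 0.21 and 0.22, against 0.00 and 0.03 over the other abundant brain genes. Among overwintered brains these distances ran from -0.14 in brain 5 to 0.05 in brain 4, although brain 1 was lowest in 14 and highest in 9 of the 51 genes. Spring-reared brain 1 was also the most deeply sequenced brain and had 10.9% unmapped reads, against 13.6 to 21.5% in the other 7 spring-reared brains. The part of depth or read quality in this was not tested.

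In ovary all 51 genes left at least 1 count in some library, so none was without reads in every ovary. The 16 ovaries held 4389 counts of the 51 genes in all, against 6197606 in the 16 brains. The summed level was 11.8 to 31.9 CPM in overwintered ovaries, with a mean of 20.1 ± 5.78 CPM, and 12.3 to 26.2 CPM in spring-reared ovaries, with a mean of 17.9 ± 4.80 CPM (SD, n = 8 each). Counts were found in all 16 ovaries for 9 genes, in 9 to 15 ovaries for 26 genes and in 1 to 8 ovaries for 16 genes. In single ovaries 33 to 44 of the 51 genes had counts in overwintered gynes, and 28 to 39 in spring-reared gynes. The 44 came from overwintered ovary 3, with 23656547 counts the deepest of the 32 libraries, and the part of depth was not tested.

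As a description, pooled brain CPM and pooled ovary CPM had a Spearman's rho of 0.141 across the 51 genes. The pooled ratio of brain to ovary ran from 75.3 for rank 46 to 46155 for rank 5, with a median of 1108 over the 50 genes with more than 3 ovary counts. Spring-reared ovary 1 held 147 of the 382 ovary counts of rank 46, and without it the ratio of that gene was 114. The ratio of rank 5 rests on 5 ovary counts, with an interval of 19778 to 142150 (95%, counting error only). Rank 5 held 612.9 to 1262 CPM in overwintered brains and 793.4 to 1392 CPM in spring-reared brains, and left 4 counts in overwintered ovaries and 1 in spring-reared ovaries. SINVBB1_04483, the most abundant in brain, held 39 counts in the 8 overwintered ovaries together and 16 in the 8 spring-reared ovaries, at most 0.887 CPM in a library. Rank 51 had 1 count over all 16 ovaries, in overwintered ovary 3. In all, 23 of the 51 genes exceeded 1 CPM in some ovary, and none reached 10 CPM.

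The ovary comparison of treatments was not used in choosing the genes, but their ovary levels were. Only 4 of the 51 genes, ranks 4, 30, 40 and 46, had enough counts to pass the filter of the ovary fit. None of the 4 passed the test, where 10.6% of the 9361 ovary genes tested did, 5.3% higher and 5.27% lower. Of those calls 49.8% were falls with TMM factors and 60.4% with total counts. No gene of the 51 had ovary ranges fully apart. Over the 9361 genes tested, 0.534% lay apart with overwintered ovaries above and 0.791% with them below. Most of the 51 genes are not among those tested, and their ovary medians were limited in choosing them. Nothing is therefore read from this difference. The 4 log2 fold changes ran from -1.14 to 0.81, and 0 of the 4 had an unadjusted p under 0.05 in edgeR. The share of all ovary genes at that limit is not given here. DESeq2 called 0 of the 4, where it called 1410 of the 9361 genes tested. Nothing is read from these counts either. Rank 46 held 0.196 to 3.2 CPM in overwintered ovaries and 0.356 to 9.76 CPM in spring-reared ovaries (log2 fold change -1.14, SE 0.70, edgeR adjusted p = 0.332). The highest values came from spring-reared ovary 1, at 9.76 CPM, and spring-reared ovary 5, at 3.84 CPM. Without spring-reared ovary 1 its mean was 1.19 CPM in spring-reared ovaries, against 1.02 CPM in overwintered ovaries. By group medians, 31 of the 46 genes whose ovary medians were not both 0 were higher in overwintered ovaries (67.4%), as were 60.5% of all 2269 such genes at or below 1 CPM.

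Rank 12, lower in overwintered brains, had more counts in overwintered than in spring-reared ovaries. Too few counts kept it out of the main ovary fit. It held 182 counts over the 8 overwintered ovaries and 5 over the 8 spring-reared ones. The overwintered ovaries lay at 0.0660 to 8.11 CPM with a median of 0.756 CPM, and the spring-reared ovaries at 0 to 0.149 CPM with a median of 0 CPM. Ovary 7 alone held 112 of the 182 overwintered counts, and the mean was 1.59 ± 2.69 CPM with it and 0.657 CPM without it. In the edgeR fit of all 13170 genes with any count, in which 6.7% of genes were called, 3.49% higher and 3.2% lower, rank 12 was the only one of the 51 genes to pass (log2 fold change 4.91, SE 1.02, adjusted p = 0.00691). Leaving out overwintered ovary 7 gave 3.77 on the log2 scale (edgeR adjusted p = 0.0166). With 5 spring-reared counts the size of this fold is uncertain, and the ranges overlapped. Rank 12 was singled out for this call and its ovary medians were limited in the choice, so the call is given as a description. Whether the brain and ovary differences of rank 12 differ was not tested.

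**Figure D5:**
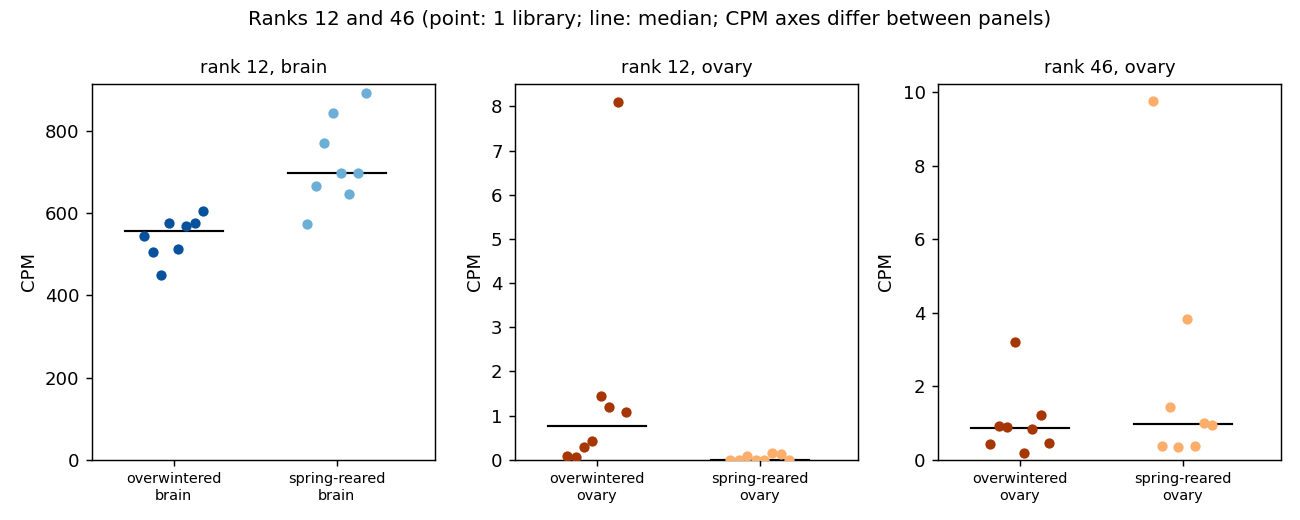
CPM of rank 12 in brain and ovary and of rank 46 in ovary (y axes linear from 0, differing between panels), 1 point per library, with a line at the median of 8. By median, rank 12 lies lower in overwintered than in spring-reared brains and higher in overwintered than in spring-reared ovaries. Single ovaries reach 8.11 CPM (rank 12) and 9.76 CPM (rank 46).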

How the data were processed

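Brains and ovaries of 16 gynes were sequenced with Smart-seq2, which does not mark strand, starting with 1.6 ng (brain) or 8.0 ng (ovary) of RNA, as the labels' protocols state. The authors deposited whole-number counts per gene model; per the submitters' processing notes, the tools were edgeR, STAR 2.7.3a and Trim Galore 0.6.5. Which genome build they used is not given in the sources used here, nor is the annotation. Reads of overlapping, antisense or near-identical genes cannot be separated in these counts. Lines that name no gene held 32.0 to 47.2% of brain reads and 16.5 to 21.2% of ovary reads and were left out. The authors also deposited CPM tables of 7655 brain and 8031 ovary genes, scaled over the listed genes; they served only to see which of the 51 genes were listed, 50 in brain and 0 in ovary.

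CPM in the text is the count over the total of gene counts. Treatments were compared within each organ with edgeR 4.0.16 in R 4.3.3 (TMM factors, filterByExpr, robust quasi-likelihood F-test, Benjamini-Hochberg adjustment over all genes tested, threshold 0.05). It was also run on counts simulated from its own model and fitted spread. Such a run cannot show how near-zero single libraries are handled. SE is the absolute log2 fold change over the square root of F. Alternatives were RLE factors, total counts, DESeq2 1.42.0, other filters, a replicate block and left-out libraries. The genes, limits and lists were chosen with earlier results of these data known. The 4 identifiers are, among genes with positive and with negative brain log2 fold changes, the most abundant and the most changed. Gene lists by name could not be applied. Intervals and limits cover counting error only.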

Additional observations from a re-analysis of the deposited data

Results flagged for a closer look

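Of 22 groups of 8 values examined (the summed level of the 51 genes in 4 groups, the number of them with counts in both ovary groups, and the 4 identified genes in 4 groups), 2 held a value far from the other 7, where chance flags about 1 in 20. Both concern SINVBB1_12297 in ovary. Overwintered ovary 1 held 0.350 CPM, against 0 to 0.0845 CPM in the other 7 overwintered ovaries. Spring-reared ovary 5 held 0.435 CPM, against 0 to 0.158 CPM in the other 7 spring-reared ovaries. These values rest on 4 and 6 counts. Several ovaries of both groups held 0 counts of this gene, so the rate of 1 in 20 may not hold there.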

How the results depend on the processing

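The number of genes that met the limits was 90 with a brain limit of 50 CPM and 29 with a brain limit of 200 CPM. With an ovary limit of 0.5 CPM the number was 35, and with an ovary limit of 2 CPM it was 65. It was 48 to 53 when single libraries were left out. The summed levels of the 51 genes moved by less than 1 SD in all 4 groups under all alternatives run.

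Over all brain genes tested, 517 were called, against 863 with DESeq2, 606 with total counts and 301 without spring-reared brains 4 and 7. Without single libraries 323 to 604 were called, lowest without overwintered brain 2. Over all ovary genes, 989 were called, against 1410 with DESeq2, 727 with total counts and 712 to 1177 without single libraries. With no filter 882 were called, and 617 when overwintered ovary 7 was also left out. Among the 51 genes, rises in brain numbered 0, against 2 with DESeq2, 2 with total counts and 0 to 1 without single libraries. Falls numbered 4, against 7 with DESeq2, 2 with total counts, 2 without spring-reared brains 4 and 7, and 2 to 6 without single libraries. In ovary 0 of 4 tested were called, and 1 of 51 with no filter, also without overwintered ovary 7.

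Replicate numbers name different gynes in the treatments, so the main fit used no block. Same-numbered libraries showed little shared deviation (correlations from -0.175 to 0.0323 in brain and from -0.228 to 0.201 in ovary). Whether anything else is shared by number was not tested. 0 of 8 overwintered brains and 1 of 8 overwintered ovaries correlated best with the spring-reared library of its own number. With a replicate block, 308 brain and 469 ovary genes were called, with 1 rise and 3 falls among the 51 genes in brain and 0 calls in ovary.

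In ovary 1 count is worth 0.0423 to 0.0874 CPM, which limits how finely the ovary values can be read. The filter of at least 1 CPM in 8 libraries left 0 of the 51 genes to test in ovary. Added after the data were seen were total counts, the population SD, the ovary fit with no filter and without overwintered ovary 7, the ovary fit without overwintered ovaries 1 and 5 and spring-reared ovary 6, and the choice of genes and their summed levels without all 5 libraries that stood apart.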
